A study of Mus musculus with 18 samples.

Results

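Both mature strands of the miR-340 hairpin, mmu-miR-340-5p and mmu-miR-340-3p (miR-340-5p and miR-340-3p from here on), were examined as 2 of the 1251 entries in the small RNA table, selected by name. The table covers 18 libraries of bulk skin tissue from female SKH-1E Hairless mice, a strain without a working Hairless gene, irradiated chronically with solar simulators from 3 months of age. Each of 6 littermates, numbered mouse 2, 3, 7, 8, 9 and 10, gave 1 sample of chronically UV-exposed nonlesional skin (CHR), 1 papilloma (PAP) and 1 cutaneous squamous cell carcinoma (cuSCC). All 3 sample types had therefore received the same irradiation, and skin that had not been irradiated was not analysed here. The comparisons ask how each strand differs between damaged skin, the precancerous lesion and the carcinoma, and whether both strands move together.

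A microRNA hairpin is cut by Dicer into a short duplex, and either of its strands, the 5p arm or the 3p arm, can be loaded into an Argonaute protein, where bases 2 to 8, the seed, pair with target transcripts. The strand that is not loaded is degraded, so the balance of the arms reflects which strand was kept. miR-340-5p is known from cell culture work to repress the transcripts of the Met receptor and of Mitf, the master factor of melanocytes, and is mostly described as restraining growth and migration of tumour cells.

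Both arms are printed below because their base composition and seeds bear on the values that follow. Capitals mark the seed in each mature strand, and the sequences are those of RefSeq on GRCm38.p6, written 5′ to 3′.
miR-340-5p: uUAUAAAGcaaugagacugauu
miR-340-3p: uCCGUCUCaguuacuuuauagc
In the hairpin, capitals mark the 2 mature arms, the 5p arm first.
Mir340 hairpin: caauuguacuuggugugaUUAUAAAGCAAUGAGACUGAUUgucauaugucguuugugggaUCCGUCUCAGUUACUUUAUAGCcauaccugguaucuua

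The Mir340 hairpin of 98 bases lies on the plus strand of chromosome 11 (chr11:50069702-50069799, GRCm38), inside Rnf130, a gene for a membrane-bound ubiquitin ligase that is read from the same strand. In both annotated Rnf130 transcripts that span it, the hairpin sits in the intron between exons 2 and 3, 1371 bases before exon 3, and it overlaps no Rnf130 exon. The 5p arm occupies chr11:50069720-50069741 and the 3p arm chr11:50069762-50069783. The longest exactly complementary run between the arms has 7 bases, which are positions 2 to 8 of the 5p arm, the whole of its seed. No other mature mouse microRNA in the RefSeq set has the seed of either arm, so neither arm has a seed family here. Within 1 Mb of Mir340 the annotation holds 4 other microRNA genes. Only Mir804 has an entry in the table, and it was detected in 0 of 18 libraries.

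miR-340-5p is poor in G and C, at 27.3% of its bases, whereas miR-340-3p has 40.9%. Of the 293 microRNAs that were tested, 241 had a RefSeq sequence. None of these 241 had less G and C than miR-340-5p, and 22 had less than miR-340-3p.

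Values are on a log2 scale that the methods give as ppm of usable reads, here called log2 ppm. On the linear scale, however, the entries of a library summed to 2.35 to 2.36 times the most that such shares can reach, so a value is a relative level and not a share of reads. The values look quantile normalised between libraries, which ties each one to a rank. The lowest value in the table, 3.32, is 10 on the linear scale, and an arm at this value was counted as not detected. The libraries differed in how far down they reached. A CHR library held 200 to 328 detected entries, a PAP library 163 to 281 and a cuSCC library 236 to 365, and the lowest detected value of a library ranged over 3.39 to 5.77 for the CHR samples, 3.71 to 6.83 for the papillomas and 3.32 to 4.50 for the carcinomas. In 5 libraries it was above 5, namely the CHR of mouse 7 and the PAP of mice 3, 7, 9 and 10. An arm that fails to appear in such a library may still have a level of up to that value, and a detected arm cannot have a value below it. The depth behind the values is unknown, because no read totals were used. Both arms are low to middling entries. miR-340-5p was detected in 17 of 18 libraries and miR-340-3p in 12.

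In CHR, miR-340-5p stood at 3.82 in mouse 2, 4.78 in mouse 3, 6.57 in mouse 7, 5.01 in mouse 8, 4.10 in mouse 9 and 3.88 in mouse 10 (log2 ppm). In PAP it was 5.77, 5.76, 7.01 and 3.81 in mice 2, 3, 7 and 8, was not detected in mouse 9, and was 7.05 in mouse 10. In cuSCC it was 5.95, 7.21, 6.90, 6.99, 5.04 and 6.13 in the same order of mice. Of the 6 CHR values, 5 lay below every cuSCC value, and that of mouse 7 overlapped them. The PAP libraries spread over nearly the full range of both other types. In bulk tissue, fewer cells that hold a microRNA and less of it per cell cannot be told apart.

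**Figure D1:**
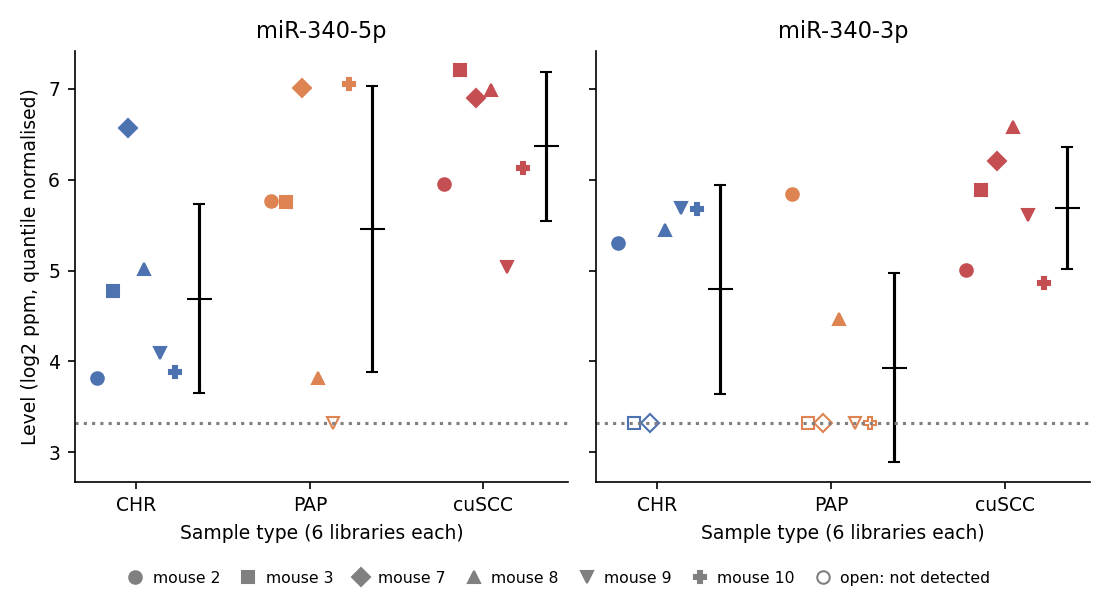
Level of each miR-340 arm (log2 ppm, quantile normalised, vertical axis) in the 6 libraries of each sample type, with a symbol per mouse, open symbols for libraries where the arm was not detected, the dotted line at the lowest value of 3.32, and bars for the mean and SD. miR-340-5p is highest in cuSCC, and miR-340-3p is not detected in 4 of 6 PAP libraries.

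The mean of miR-340-5p was 4.69 ± 1.04 for CHR, 5.45 ± 1.57 for PAP and 6.37 ± 0.82 for cuSCC (SD, n = 6 each). It was higher in cuSCC than in CHR by 1.68 on the log2 scale (standard error 0.50, limma adjusted p = 0.0157 over 293 microRNAs), a 3.20-fold difference with a 95% interval of 1.53 to 6.68. In this comparison 42.3% of all tested microRNAs passed, 20.1% as higher in cuSCC, so a rise of this kind is common in the table. Within mice the difference had the same sign in 6 of 6, from 0.33 in mouse 7 to 2.43 in mouse 3, and 3 of 6 cuSCC values exceeded every CHR value. With mouse as a block the limma adjusted p was 0.00683, and without mouse 2 or mouse 3 the difference of 1.59 or 1.53 did not pass (limma adjusted p = 0.0503 and 0.0674).
The steps on either side of PAP did not pass. PAP differed from CHR by 0.76 (95% interval -0.77 to 2.29, limma adjusted p = 0.43, with 32.4% of all tested microRNAs passing) and was higher in 4 of 6 mice. cuSCC differed from PAP by 0.92 (95% interval -0.54 to 2.37, limma adjusted p = 0.378, with 11.6% passing), also higher in 4 of 6 mice. In the order CHR, PAP, cuSCC, neither pair of neighbours therefore passed, and only the ends did. The intervals for the neighbours are wide, so this does not show that they are alike.

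The high values of miR-340-5p outside cuSCC came from libraries that reached least far down. The CHR of mouse 7 had a lowest detected value of 5.77, and miR-340-5p stood 0.80 above it. In the PAP of mice 7 and 10, the lowest detected values were 6.72 and 6.83, and miR-340-5p stood 0.28 and 0.22 above them. Measured from the lowest detected value of its own library, miR-340-5p stood 0.28 to 1.32 higher in CHR (n = 6), 0.11 to 1.0 in the PAP libraries where it was detected (n = 5) and 1.57 to 3.84 in cuSCC (n = 6). On this measure the cuSCC libraries did not overlap with either other type. Of all tested microRNAs, 8.19% had every cuSCC library above every CHR library by it, and 11.6% had every cuSCC library above every PAP library. The measure was chosen after the values were seen, and it also carries the lower reach of the cuSCC libraries.
Without the CHR of mouse 7, the only library above 5 in this comparison, the difference between cuSCC and CHR was 2.05 (limma adjusted p = 0.00232). Among the detected entries of a CHR library, 75.9% to 92.1% ranked above miR-340-5p. In PAP libraries at least 82.1% did, and in cuSCC libraries 44.5% to 76.7%, so that the percentages of cuSCC overlapped slightly with those of CHR. These percentages also carry the larger number of detected entries in many cuSCC libraries. Its rank itself was 169 to 267 in CHR, 151 to 268 in the PAP libraries where it was detected and 152 to 217 in cuSCC. These rank ranges overlapped widely. It shared its exact value with 4 to 11 other entries in CHR and with 0 to 3 in cuSCC.

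**Figure D2:**
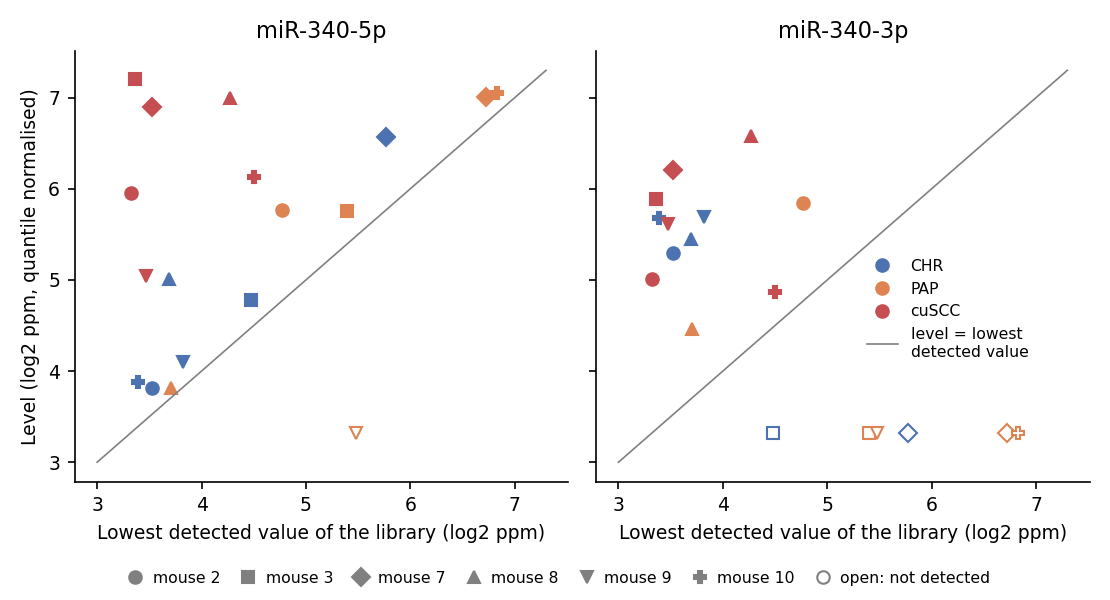
Level of each arm (vertical axis, log2 ppm) against the lowest detected value of the same library (horizontal axis, log2 ppm), coloured by sample type, with open symbols where the arm was not detected and a line where both are equal. For miR-340-5p, CHR libraries lie 0.28 to 1.32 above the line, PAP libraries where it was detected 0.11 to 1.0, and cuSCC libraries 1.57 to 3.84. The PAP of mouse 9, where it was not detected, lies below the line. miR-340-3p is missing in every library whose lowest detected value is above 5.

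miR-340-3p followed another course. In CHR it stood at 5.30, 5.45, 5.69 and 5.67 in mice 2, 8, 9 and 10, and was not detected in mice 3 and 7. In PAP it was detected in mouse 2 at 5.85 and in mouse 8 at 4.46, and in none of the other 4 mice. In cuSCC it was detected in all 6, at 5.01, 5.89, 6.21, 6.58, 5.61 and 4.86 in mice 2, 3, 7, 8, 9 and 10. The detected values of CHR lay inside the range of cuSCC, and the types differed mainly in how often the arm was seen.

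With undetected values at 3.32, miR-340-3p had means of 4.79 ± 1.15 for CHR, 3.93 ± 1.04 for PAP and 5.69 ± 0.67 for cuSCC (SD, n = 6 each). It was higher in cuSCC than in PAP by 1.76 (standard error 0.49, limma adjusted p = 0.0394), where 9.22% of all tested microRNAs passed as higher. With mouse as a block, which pairs the samples, this did not pass (limma adjusted p = 0.0632), and the exact permutation test adjusted over all microRNAs gave p = 0.0945. The value rests on the 4 PAP libraries in which the arm was not detected. Raising each undetected value to its library's lowest detected one gave a difference of -0.10 (limma adjusted p = 0.867, with 27.3% of all tested microRNAs passing), and without the 5 libraries above 5, which leaves 2 PAP libraries, it was 0.54 (limma adjusted p = 0.587). It also did not pass when mouse 3, 7, 8 or 9 was left out.
The 6 libraries without miR-340-3p had lowest detected values of 4.48 to 6.83, and the 12 with it 3.32 to 4.77. A lower level in PAP and a shallower reach of the PAP libraries cannot be told apart in these values. cuSCC and CHR differed by 0.90 (95% interval -0.17 to 1.97, limma adjusted p = 0.162), and PAP and CHR by -0.86 (95% interval -2.14 to 0.42, limma adjusted p = 0.292). Under the same treatment of undetected values these became 0.30 and 0.40, neither of which passed (limma adjusted p = 0.53 and 0.444), while 40.3% and 34.1% of all tested microRNAs did.

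**Figure D3:**
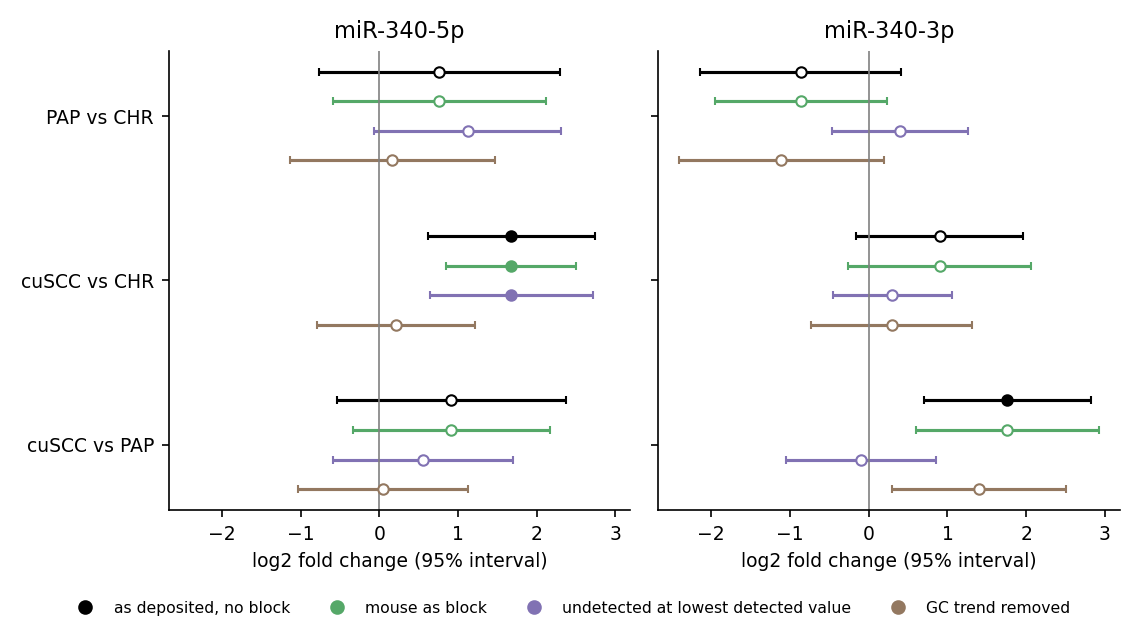
Difference of each arm between sample types (horizontal axis, log2 fold change with its 95% interval) as deposited, with mouse as a block, with undetected values raised to the lowest one detected there, and with the GC trend of each library removed, where filled points have a limma adjusted p under 0.05. The difference of 1.68 for miR-340-5p in cuSCC against CHR is 0.21 once the GC trend is removed, and that of miR-340-3p in cuSCC against PAP changes from 1.76 to -0.10 with the treatment of undetected values.

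The arm difference, miR-340-5p minus miR-340-3p in the same library, was first read where both arms were detected, since elsewhere 1 of the 2 values is only a limit. In CHR this was the case in 4 libraries, and the 3p arm was higher in all 4, with differences of -1.48, -0.43, -1.60 and -1.80 in mice 2, 8, 9 and 10. In PAP it was the case in mice 2 and 8, at -0.07 and -0.65. In cuSCC both arms were detected in all 6 mice, and the 5p arm was higher in 5, by 0.94, 1.32, 0.69, 0.41 and 1.26 in mice 2, 3, 7, 8 and 10, while mouse 9 had -0.56. The arm with the higher value thus changed from 3p in CHR to 5p in cuSCC in these libraries. Both arms are 22 bases long, but values of different sequences are not calibrated against each other, so which arm is higher within a library is uncertain. The movement between libraries depended on the treatment of the values as well. Over all 18 libraries cuSCC and CHR differed by 0.78, and by -0.08 with the GC trend described below removed (exact permutation tests, adjusted p = 0.403 and 0.926).

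Over these libraries alone the mean arm difference was -1.33 ± 0.61 for the 4 CHR libraries, -0.36 ± 0.41 for the 2 PAP libraries and 0.68 ± 0.70 for the 6 cuSCC libraries (SD). cuSCC and CHR differed by 2.0 (exact permutation test, two-sided, p = 0.00952, adjusted p = 0.0286 over the 3 comparisons). Such libraries are partly chosen by the arms' own values, since a library with a low 3p arm drops out, and the libraries that drop out of CHR, from mice 3 and 7, are those in which only the 5p arm was seen.
With all 18 libraries the comparison did not pass. The mean arm difference was then -0.10 ± 2.04 for CHR, 1.52 ± 2.0 for PAP and 0.68 ± 0.70 for cuSCC (SD, n = 6 each). The difference was 0.78 between cuSCC and CHR, 1.62 between PAP and CHR and -0.84 between cuSCC and PAP, each with an adjusted p of 0.403 in exact permutation tests. The SDs of CHR and PAP come from libraries with an undetected 3p arm, in which the difference reached 3.25 in CHR and 3.73 in PAP. Once undetected values were raised in this way, the 6 libraries came to between 0.0 and 0.80, and cuSCC differed from CHR by 1.38 (exact permutation p = 0.0325, adjusted p = 0.0974).

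**Figure D4:**
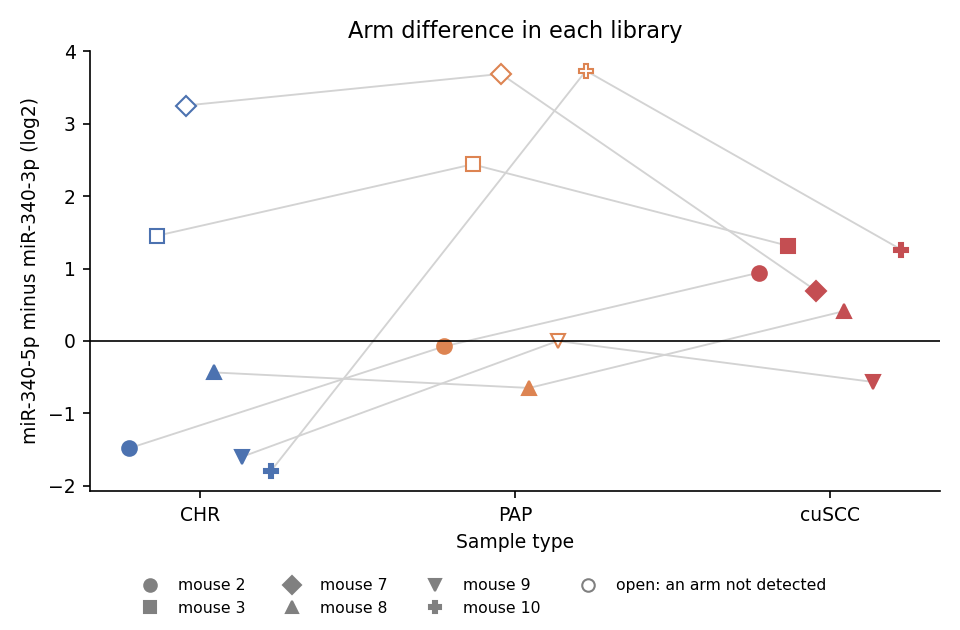
miR-340-5p minus miR-340-3p (vertical axis, log2) in each library by sample type, with grey lines joining samples of the same mouse and open symbols where an arm was not detected. Filled CHR symbols all lie below 0 and 5 of the 6 cuSCC symbols lie above 0, while the open symbols depend on the value given to an undetected 3p arm, at 1.45 to 3.73, or to both arms, at 0 in the PAP of mouse 9.

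Of 67 hairpins with both arms tested, 41.8% differed in arm difference between cuSCC and CHR with a limma adjusted p under 0.05, 7.46% between PAP and CHR and 4.48% between cuSCC and PAP. miR-340 was not among them in any of these (limma adjusted p = 0.399, 0.378 and 0.635), and its change ranked 38th, 11th and 17th of 67 by size. With undetected values at the lowest detected value it passed between cuSCC and CHR (limma adjusted p = 0.0295), as did 41.8% of the hairpins, while 19.4% then passed between PAP and CHR and 17.9% between cuSCC and PAP. The largest shifts towards the 5p arm in cuSCC against CHR were those of miR-330 (3.10), miR-133a (2.94) and miR-1843b (2.86), and the largest towards the 3p arm those of miR-145a (-2.58), miR-205 (-2.12) and miR-99b (-1.63). Of these 6, miR-133a did not pass with undetected values raised (2.73, limma adjusted p = 0.1).
A change of the higher arm was rarer. Among 49 hairpins with both arms detected in at least 4 CHR and 4 cuSCC libraries, the arm that was higher in most libraries differed between the 2 types for 5, or 10.2%. These were miR-340, let-7d, miR-130b, miR-210 and miR-423, and only miR-340 and let-7d changed from 3p to 5p.

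The difference in miR-340-5p between cuSCC and CHR was smaller once a trend with base composition was removed. In every library, levels fell with G and C content, by 0.19 to 0.50 for each 10 percentage points in the CHR libraries, 0.15 to 0.98 in the PAP libraries and 0.69 to 1.22 in the cuSCC libraries. The slopes of CHR and cuSCC did not overlap. With a straight line against G and C content removed from each library, miR-340-5p differed between cuSCC and CHR by 0.21 (95% interval -0.80 to 1.22, limma adjusted p = 0.744) and miR-340-3p by 0.29 (limma adjusted p = 0.644). The arm difference was then -0.08 (exact permutation test, adjusted p = 0.926). miR-340-5p stands at the end of this line, where few other microRNAs anchor it.
There were 53 tested microRNAs with no more G and C than miR-340-3p, both arms included, a cut chosen after the values were seen. Of these 53, 24 passed as higher in cuSCC than in CHR and 1 as lower (limma adjusted p under 0.05). Their median log2 fold change was 0.90. Of all 241 with a sequence, 54 passed as higher and 51 as lower, with a median of 0.11. With the trend removed, 9 of the 53 passed as higher and 5 as lower. Why the slope differs between sample types was not tested.

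**Figure D5:**
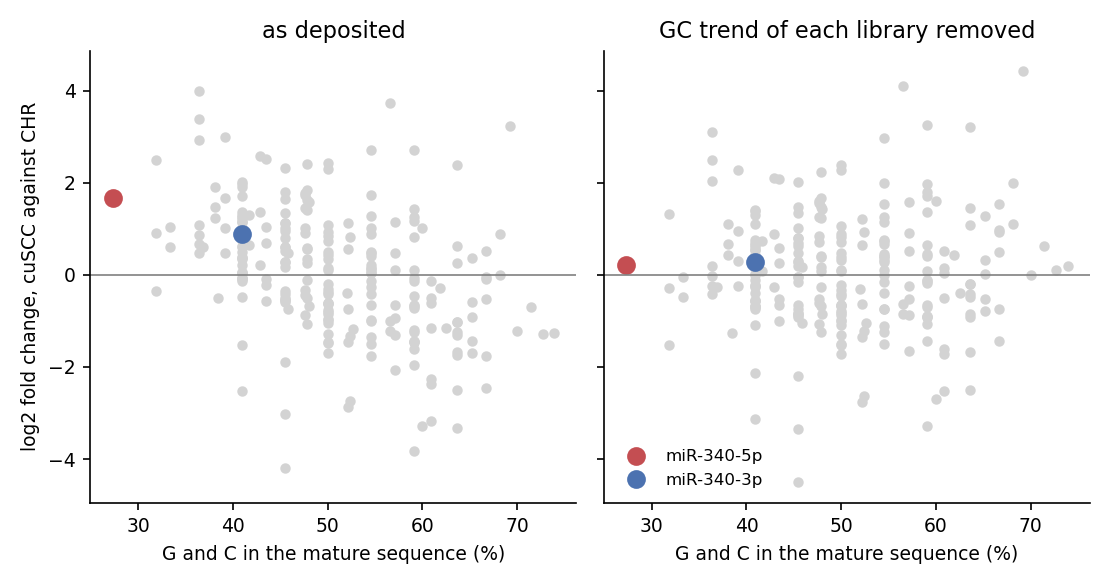
log2 fold change in cuSCC against CHR (vertical axis) against G and C content of the mature sequence (horizontal axis, %) for the 241 tested microRNAs with a sequence, as deposited and after removing the GC trend of each library. miR-340-5p has the lowest content at 27.3% and changes from 1.68 to 0.21, and miR-340-3p changes from 0.90 to 0.29.

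The arms did not follow each other across samples. Over the 18 libraries their values correlated at Pearson r = 0.04, and at -0.22 after the mean of each sample type was subtracted. This is a description over libraries that share their reach and normalisation, and undetected values weigh on it. In the 6 libraries where miR-340-3p was not detected, its value is only a limit, while miR-340-5p ranged up to 7.05. These r values therefore do not show whether the arms follow each other where both were detected. The microRNAs most like miR-340-5p over the 18 libraries were miR-16-5p (r = 0.78), miR-26b-5p (0.73), miR-30b-5p (0.71), miR-21a-5p (0.71) and miR-1839-5p (0.71). Of these, miR-16-5p, a repressor of cell cycle transcripts, was higher in cuSCC than in CHR by 1.34, miR-26b-5p by 1.04 and miR-21a-5p, a widely raised microRNA of tumours, by 2.94, each with a limma adjusted p of at most 0.00501. miR-30b-5p and miR-1839-5p differed by 0.40 and 0.97 and did not pass (limma adjusted p = 0.296 and 0.114). After the type means were subtracted, miR-1839-5p (r = 0.72), miR-16-5p (0.67), miR-30b-5p (0.66), miR-378c (0.66) and miR-26b-5p (0.60) led.
For miR-340-3p the closest were miR-212-5p (r = 0.79), miR-34a-5p (0.79), miR-298-5p (0.75), miR-199b-5p (0.72) and miR-322-5p (0.71). These 5 were detected in 7 to 13 of the 18 libraries. In the 6 libraries without miR-340-3p, miR-212-5p, miR-298-5p and miR-199b-5p were not detected in any, and miR-34a-5p and miR-322-5p not in 5. After the type means were subtracted, the closest were miR-212-5p (r = 0.73), miR-298-5p (0.73), miR-151-5p (0.72), miR-744-3p (0.72) and miR-338-3p (0.71).

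Lists of other microRNAs place these values beside microRNAs of related roles. Counts of higher and lower members below, those of the cell type markers included, hold only members with a limma adjusted p under 0.05. Over all tested microRNAs, the shares that passed as higher and lower were 14.0% and 18.4% in PAP against CHR, 20.1% and 22.2% in cuSCC against CHR, and 9.22% and 2.39% in cuSCC against PAP. Once undetected values were raised to the lowest detected value of a library, these shares were 21.5% and 12.6%, 17.4% and 22.9%, and 6.14% and 21.2%, so that the balance turned in both comparisons with PAP. In the last of these comparisons the exact permutation test adjusted over all microRNAs called 0 microRNAs (75 had an unadjusted p under 0.05), and so none in any list below. The first list holds 9 arms of microRNAs that the study names, without arms, as raised across species. The study chose them partly on these samples and the arms were taken with results known, so their direction is not independent evidence. All 9 were higher in cuSCC than in CHR (median log2 fold change 2.53, against 0.11 over all tested microRNAs), among them miR-20a-5p (3.0) of the growth-promoting miR-17 cluster and miR-21a-5p (2.94). In PAP against CHR 5 of the 9 were higher and 0 lower, with a median of 1.90 against -0.23 over all tested microRNAs. In cuSCC against PAP 1 of the 9 was higher, miR-21a-5p (1.79). With undetected values raised, 7 of the 9 were higher both in PAP and in cuSCC than in CHR. Of the other tested arms of these microRNAs, miR-200a-3p was higher in cuSCC than in CHR (2.02), and miR-17-3p and miR-15b-5p differed by 1.29 and 0.05 and did not pass (limma adjusted p = 0.0783 and 0.89). The study also names a miR-340b, and whether this is either of the 2 arms described here is unsure. miR-340-5p had smaller values than the medians of the 9 in cuSCC against CHR (1.68) and in PAP against CHR (0.76). In cuSCC against PAP its value was larger (0.92 against a median of 0.48) but did not pass.
The second list holds 7 microRNAs known to repress the Met transcript, as miR-340-5p does. Of these, 4 could be tested, and in cuSCC against CHR 0 passed in either direction by limma (1 with an unadjusted p under 0.05) or by the exact permutation test, with values of 1.14 for miR-199a-3p, 0.74 for the p53 target miR-34a-5p, -0.59 for miR-206-3p and 0.32 for miR-34c-5p. In PAP against CHR 2 of the 4 fell, miR-206-3p by 3.22 and miR-199a-3p by 1.48. In cuSCC against PAP 3 were higher, namely miR-206-3p and miR-199a-3p (2.62 each) and miR-34a-5p (2.14). miR-206-3p belongs to skeletal muscle and miR-199a-3p to fibroblasts, and both are also in the marker lists below. With undetected values raised, miR-199a-3p alone of the 4 passed in each of these comparisons with PAP.
The third list holds 5 microRNAs known to repress Mitf, of which 3 could be tested. miR-182-5p was higher in cuSCC than in CHR by 1.59 and miR-148a-3p by 1.03, and miR-101a-3p differed by 0.61 and did not pass (limma adjusted p = 0.258). In PAP against CHR miR-182-5p was higher (1.76), and in cuSCC against PAP miR-148a-3p was (1.19).

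Markers of the cell types that bulk skin holds were read in the same libraries. All 7 epithelial markers, the miR-200 family with miR-203-3p and miR-205-5p, were tested, and 6 were detected in every library. Their summed level, on the log2 scale, was 17.50 to 18.51 for CHR, 17.77 to 18.55 for PAP and 17.50 to 18.54 for cuSCC, and 4 of 7 were higher in PAP and 3 of 7 in cuSCC than in CHR. In cuSCC against PAP 1 of 7 was lower, miR-200c-3p (-1.45). Both endothelial markers, both arms of miR-126, were higher in cuSCC than in CHR by 1.40 and 1.74 and higher than in PAP by 1.59 and 2.84, with summed levels of 9.26 to 11.17 against 7.84 to 9.35 in CHR and 7.61 to 9.0 in PAP. Skeletal muscle markers, of which 3 of 4 were tested and miR-1a-3p was detected in 1 library, summed to 15.44 to 15.98 for CHR, 5.32 to 12.45 for PAP and 6.04 to 14.24 for cuSCC. In all these sums an undetected member counts at 3.32. A sum of 5.32 is that of all 4 muscle markers undetected, and the PAP median of 5.63 lies near it. All 3 were lower in PAP than in CHR and higher in cuSCC than in PAP, or 1 of 3 in each case with undetected values raised, and 1 of 3 was lower in cuSCC than in CHR.
Fibroblast and smooth muscle markers summed to 14.30 to 15.06 for CHR, 11.02 to 14.04 for PAP and 12.53 to 15.51 for cuSCC, with 3 of 5 lower in PAP than in CHR and 2 of 5 higher in cuSCC than in PAP. With undetected values raised these counts were 5 of 5 and 3 of 5. In cuSCC against CHR 1 of 5 was lower, miR-145a-5p (-1.78). Leukocyte markers, of which 4 of 5 were tested and miR-142-3p was detected in 2 libraries, summed to 13.12 to 14.28 for CHR, 9.03 to 11.82 for PAP and 11.13 to 12.59 for cuSCC, with 2 of 4 lower in both lesions than in CHR and miR-142-5p higher in cuSCC than in CHR (1.53) and than in PAP (2.53). Erythroid markers, of which miR-144-3p was never detected and 2 of 3 were tested, summed to 16.69 to 17.84 for CHR, 16.70 to 18.24 for PAP and 14.86 to 17.87 for cuSCC, and the 2 tested members moved apart. miR-451a was higher than in CHR in both lesions (4.78 in PAP and 3.99 in cuSCC), whereas miR-486-5p was lower in cuSCC than in CHR (-1.27) and than in PAP (-1.83). The muscle, fibroblast, leukocyte and endothelial lists had their lowest values in PAP. For endothelium the ranges of PAP and CHR overlapped, and neither arm of miR-126 passed between them (limma adjusted p = 0.691 and 0.197). The mean of miR-340-3p was also lowest in PAP with undetected values at 3.32. With these raised, PAP and CHR differed by 0.40 (limma adjusted p = 0.444), so the likeness rests on the undetected values. The part of tissue composition in the values of either arm was not tested.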

How the data were processed

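Small RNA libraries of 18 mouse samples were used, 6 each of CHR, PAP and cuSCC. The authors trimmed adapters, dropped very short or homopolymer-tailed reads, matched what remained against miRBase by BLAST and gave each microRNA as ppm of usable reads. The deposited log2 values appear quantile normalised, as read from the values, and their linear sums are above what ppm allows, for which no source used here gives a reason. The miRBase release and the division of ambiguous reads are not given in the sources used here. The submitters' processing notes name mm10, which is GRCm38.

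Of 1251 entries, 293 were above the lowest value in at least 6 libraries and were tested with limma 3.58.1 in R 4.3.3 on the 2 types compared, without a block, two-sided, with Benjamini-Hochberg adjustment and a threshold of 0.05. The arm difference was tested with exact permutation tests in Python 3.11.15 (numpy 2.4.6, pandas 2.3.3), and plots used matplotlib 3.10.9. Equal numbers mark samples of 1 mouse, so they are paired. Their deviations from type means correlated at 0.03 (PAP and CHR), -0.07 (cuSCC and CHR) and 0.06 (cuSCC and PAP) on average. Mature sequences were matched by name for 1001 entries.

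Both arms were named in every library. For each arm the 5 microRNAs of highest Pearson r were named, with the 3 hairpins of largest arm shift in each direction, and for the lists those with the largest values. Members and lists were chosen with earlier results of these data known. The scripts were tested on simulated data. Alternatives were other filters, fits, scalings, a GC correction, a mouse block and leaving out each mouse. Those that leave out the 5 libraries above 5 or pair the lowest detected value with the block were added after seeing the data.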

Additional observations from a re-analysis of the deposited data

How the results depend on the processing

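The difference of miR-340-5p between cuSCC and CHR kept its sign under all alternatives, from 0.19 to 2.05. It no longer passed with all 3 sample types in the fit (1.68, limma adjusted p = 0.0507), when values under 100 ppm were raised to it (0.19, limma adjusted p = 0.133) or with the GC trend removed (0.21). Leaving out 1 mouse gave 1.53 to 1.95, and it did not pass without mouse 2 (1.59, limma adjusted p = 0.0503) or mouse 3 (1.53, 0.0674). Its other comparisons passed under no alternative.

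The difference of miR-340-3p between cuSCC and PAP was 1.76 but did not pass without a filter (limma adjusted p = 0.066), with the replicate block for mouse (0.0632) or in the exact permutation test (0.0945). It was 1.40 with the GC trend removed, 0.54 without the 5 libraries above 5, with either treatment of undetected values, and -0.10 with the lowest detected value, with and without the block. Leaving out 1 mouse gave 1.53 to 2.28, and it passed without mouse 2 or 10 (limma adjusted p = 0.0133 and 0.0384) and not without mouse 3, 7, 8 or 9 (0.094 to 0.174). Between PAP and CHR it was 0.40 with the lowest detected value, with and without the block, and 0.07 without the 5 libraries, where it was -0.16 once undetected values were raised too. At 100 ppm miR-340-3p was constant and gave no value.

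The arm difference between cuSCC and CHR was -0.082 with the GC trend removed, 2.0 over libraries with both arms detected, and 1.68 with undetected values at the lowest detected value and without the CHR of mouse 7 (exact permutation test, adjusted p = 0.0455). Without that library but with undetected values at 3.32 it was 1.45 and did not pass (exact permutation test, adjusted p = 0.161). With the lowest detected value and mice paired it was 1.38 and did not pass either (exact sign-flip test, adjusted p = 0.141). Between cuSCC and PAP it was 0.65 with the lowest detected value, with and without the block, 0.07 with 100 ppm, and 1.04 over libraries with both arms detected or without the 5 libraries. The replicate block changed no other call of either arm. With 6 mice the smallest p of the exact sign-flip test is 0.0312.

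The number of microRNAs passing between cuSCC and PAP was 34. It was 2 without a filter, 0 in the exact permutation test (75 with an unadjusted p under 0.05), 80 with the lowest detected value, 81 with this and the block, 21 with 100 ppm, 9 with the GC trend removed, 83 at the thresholds of the study, 0 without the 5 libraries (48 with an unadjusted p under 0.05, or 52 with the lowest detected value), and 1 to 59 with 1 mouse left out (1 without mouse 3, 7 or 8, 9 without mouse 2 or 9, 59 without mouse 10). Between PAP and CHR it was 95, 41 without the 5 libraries with either treatment of undetected values, and 55 to 79 with 1 mouse left out (55 without mouse 3, 59 without mouse 7). Between cuSCC and CHR it was 124, and 77 to 129 with 1 mouse left out (77 without mouse 3). Where no value shows the cause of such a change, the cause was not tested.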

Other observations

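Arm differences of other hairpins moved by more than that of miR-340 in the comparisons with PAP. Between PAP and CHR, miR-133a of skeletal muscle moved towards its 5p arm by 9.69 and miR-330 by 2.73, and miR-1247, miR-145a and miR-205 moved towards their 3p arms, by -3.16, -2.48 and -1.84 on the log2 scale (limma over 67 hairpins, adjusted p of at most 0.0111 for each). miR-3107, at 1.89, did not pass (limma adjusted p = 0.111). Between cuSCC and PAP, miR-1843b (2.67) and miR-106b (2.47) moved towards their 5p arms and miR-133a (-6.76) towards its 3p arm, each passing, while miR-1247 (1.92), miR-22 (-1.47) and miR-200a (-1.20) did not pass (limma adjusted p = 0.0647, 0.117 and 0.535). In no PAP library were both arms of miR-133a, miR-1247, miR-145a or miR-22 detected, so the sizes of their shifts depend on the value given to an undetected arm. Taken alone, miR-133a-3p changed by -10.04 and miR-145a-5p by -2.83 in PAP against CHR. A fall of an arm below the lowest value is not seen, so these shifts do not show a change of strand choice. With undetected values raised to the lowest detected value of a library, the shifts between PAP and CHR were 9.76 for miR-133a, -2.62 for miR-1247 and -4.04 for miR-145a, and miR-3107 passed (1.32, limma adjusted p = 0.0436). Between cuSCC and PAP, miR-1843b (0.85) and miR-106b (1.32) then did not pass (limma adjusted p = 0.324 and 0.0646), whereas miR-133a (-7.03), miR-1247 (1.82) and miR-22 (-3.43) did. Both of these comparisons share the PAP libraries. Summed levels of skeletal muscle markers were below those of CHR in every PAP library. However, miR-133a-3p is itself among these markers, so this sum and the shift of miR-133a are not independent. The part of muscle content in the shift was not tested.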
